A study of Mus musculus with 18 samples.

Results

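Expression of 9 genes that write, read and erase DNA methylation was followed by RNA sequencing in 18 libraries, made from the brain, liver and testis of mice. They are the methyltransferase genes Dnmt1, Dnmt3a and Dnmt3b, the cofactor gene Dnmt3l, the reader gene Uhrf1, the oxidase genes Tet1, Tet2 and Tet3 and the glycosylase gene Tdg. They were chosen by symbol, not by level, and all 9 were found among the 34932 genes measured. Each tissue was sampled in control mice and in mice exposed to chronic restraint stress, a repeated confinement of the animal, with 3 biological replicates in each of the 6 groups. No genotype, transgene, drug, strain, sex, age or restraint schedule is given in the sources used here for any group, so the groups compared differ, as far as they are described, in tissue and in restraint alone. One of the tissues is labelled brain, although the extraction text names the hippocampus, and the label is followed here. The values are messenger RNA levels in whole tissue, and methylation of DNA itself was not measured in these libraries.

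DNA methylation in mammals is placed mainly on cytosines followed by guanine (CpG). DNMT3A and DNMT3B set new marks, DNMT3L is a catalytically inactive partner that stimulates them in germ cells, and DNMT1 copies marks onto the new strand after replication, guided to it by UHRF1, which binds hemimethylated CpG. TET1, TET2 and TET3 oxidise methylcytosine stepwise, and TDG excises the more oxidised bases so that repair can restore an unmodified cytosine. Neurons are known for high DNMT3A, for TET proteins and for abundant hydroxymethylcytosine, whereas male germ cells erase and rebuild their methylation pattern before birth and then go through mitosis and meiosis in the adult testis.

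The sequences just before the start sites of 3 members are shown because they mark the extremes met below: Dnmt3l and Uhrf1, the members most restricted to testis, and Tdg, the member with the lowest unadjusted p for stress in both liver and brain. All 9 members had at least 1 promoter window in RefSeq (build GRCm38.p6, another build than that of the reads), 16 windows in all, each with 250 bases before and 50 after a start site. The 250 bases before the first of 3 Dnmt3l start sites (chr10:78042037-78042286, plus strand) and before the second of 2 Uhrf1 start sites (chr17:56304063-56304312, plus strand) follow, 5′ to 3′, with each CG in capitals.
Dnmt3l: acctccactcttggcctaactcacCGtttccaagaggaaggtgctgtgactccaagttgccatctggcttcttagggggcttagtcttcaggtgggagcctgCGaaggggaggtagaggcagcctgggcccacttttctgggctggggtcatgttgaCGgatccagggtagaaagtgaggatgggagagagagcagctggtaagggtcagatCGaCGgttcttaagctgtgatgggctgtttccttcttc
Uhrf1: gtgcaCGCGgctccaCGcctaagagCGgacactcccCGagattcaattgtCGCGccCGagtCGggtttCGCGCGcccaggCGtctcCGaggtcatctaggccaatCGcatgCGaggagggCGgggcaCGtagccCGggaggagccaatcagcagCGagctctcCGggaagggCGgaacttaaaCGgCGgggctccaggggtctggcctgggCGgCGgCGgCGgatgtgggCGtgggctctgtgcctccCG
The Dnmt3l stretch holds 5 CG and the Uhrf1 stretch 30. Over the whole windows of 300 bases, the 3 Dnmt3l windows held 6, 4 and 3 CG, below the median of 7 over 32817 RefSeq mouse windows, and the Uhrf1 window shown held 33, more than 91.4% of windows. The window of the other Uhrf1 start site held 12 CG, more than 60.4% of windows. The single Tet2 window was the densest among the members, with 57 CG, more than 99.8% of windows.

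For Tdg the 250 bases before its single start site (chr10:82629588-82629837, plus strand) are shown with the palindromic cAMP response element TGACGTCA in capitals.
Tdg: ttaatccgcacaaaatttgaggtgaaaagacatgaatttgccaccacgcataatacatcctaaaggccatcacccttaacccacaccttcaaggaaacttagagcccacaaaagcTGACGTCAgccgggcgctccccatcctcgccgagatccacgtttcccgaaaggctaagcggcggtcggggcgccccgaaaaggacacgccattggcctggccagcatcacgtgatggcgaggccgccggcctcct
The first base of this motif lies 135 bases before the start site. It was found in 1.79% of all windows and, among the members, in Tdg alone. The other strings searched on both strands were the E2F strings TTTGGCGC, found in 1 Dnmt1 window and in 0.515% of all windows, and TTTCCCGC, found in no member and in 1.07% of windows. The glucocorticoid response element (AGAACA, then 3 bases of any kind, then TGTTCT) was in no member window and in 0.00914% of all windows. The GC box GGGCGG was in at least 1 window of every member except Tdg, and in 35.6% of all windows. These are matches of letters, and binding of a factor was not measured.

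Depth was even, with 27.85 to 36.5 megacounts per library. Marker genes set the tissues apart: hepatocyte markers summed to at least 97801 CPM, counts scaled to the library total, in every liver library and neuron markers to at least 7528 CPM in every brain library. Spermatid markers summed to at least 14165 CPM in every testis library. Some libraries stood apart within their tissue. Choroid plexus markers summed to 394 and 263 CPM in stress brain replicates 2 and 3, against 5.54 to 11.5 CPM in the other 4 brain libraries. Hepatocyte markers summed to 368 and 239 CPM in the same 2 libraries, through Ttr, a gene of both lists, at 367 and 239 CPM. Without Ttr the choroid plexus list summed to 26.9 and 24.9 CPM there against 5.04 to 11.2 CPM in the others, and the hepatocyte list to at most 0.761 CPM in every brain library. Oligodendrocyte markers summed to 1752 CPM in stress brain replicate 2 and to 4270 CPM in control brain replicate 3. The other brain libraries had 2606 to 3944 CPM of them. Lymphocyte markers summed to 25.7 CPM in control brain replicate 3 and 16.4 CPM in stress brain replicate 3. They summed to 3.78 to 5.87 CPM in the other brain libraries. Macrophage markers summed to 281 to 354 CPM in stress liver against 140 to 169 CPM in control liver. In stress testis replicate 2, macrophage markers summed to 95.2 CPM against 34.3 to 47.2 CPM in the other testis libraries, and Sertoli cell markers to 1549 CPM against 986 to 1100 CPM. In whole tissue, fewer cells of a type and less RNA per cell cannot be told apart, which holds for every difference given here.

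In the brain, Dnmt1, Dnmt3a, Tdg and Tet3 were the most abundant members, and in testis Uhrf1 and Dnmt1 stood far above the rest. In control liver each member had a lower mean TPM than in at least 1 of the other tissues. On the deposited TPM scale, transcript abundance divided by gene length and by the library's total, genes can be compared with each other. On it, control brain had 38.3 ± 3.26 TPM of Dnmt1, 23.4 ± 3.44 of Dnmt3a, 21.1 ± 1.36 of Tdg, 21.0 ± 3.58 of Tet3, 14.2 ± 0.573 of Tet2 and 3.32 ± 0.0747 of Tet1 (SD, n = 3, as for all levels below). Dnmt3a, Tdg and Tet3 differed there by less than their spread. Uhrf1 (0.597 ± 0.426 TPM), Dnmt3b (0.704 ± 0.12 TPM) and Dnmt3l (0.103 ± 0.126 TPM) were near the bottom in brain.

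Control testis had the opposite order for the maintenance pair, with 56.3 ± 2.43 TPM of Uhrf1 and 25.7 ± 1.08 TPM of Dnmt1. Dnmt3l followed at 6.85 ± 0.965 TPM, then Tdg (3.58 ± 0.664 TPM), Dnmt3b (2.69 ± 0.501 TPM) and Dnmt3a (2.54 ± 0.138 TPM), of which Dnmt3b overlapped both of the others in range. The oxidases were lowest there, at 1.41 ± 0.14 TPM for Tet3, 0.863 ± 0.185 TPM for Tet2 and 0.137 ± 0.0401 TPM for Tet1. Control liver reached at most 4.81 ± 1.07 TPM (Tet3), followed by Tdg (3.85 ± 0.296 TPM), Dnmt1 (3.19 ± 0.0552 TPM), Tet2 (2.51 ± 0.466 TPM) and Dnmt3a (2.47 ± 0.607 TPM).

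Ranked by TPM among 19973 protein-coding genes of the same library, Uhrf1 stood between the 84.7 and 86.1 percentile in testis and no higher than the 36.9 percentile in liver or brain. Dnmt1 stood between the 71.9 and 77.7 percentile in brain and testis and between the 57.2 and 60.5 percentile in liver. Tet3 stood at the 61.6 percentile or above in brain and liver and at the 35.0 percentile or below in testis. A rank within a library does not depend on how libraries are scaled against each other.

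**Figure D1:**
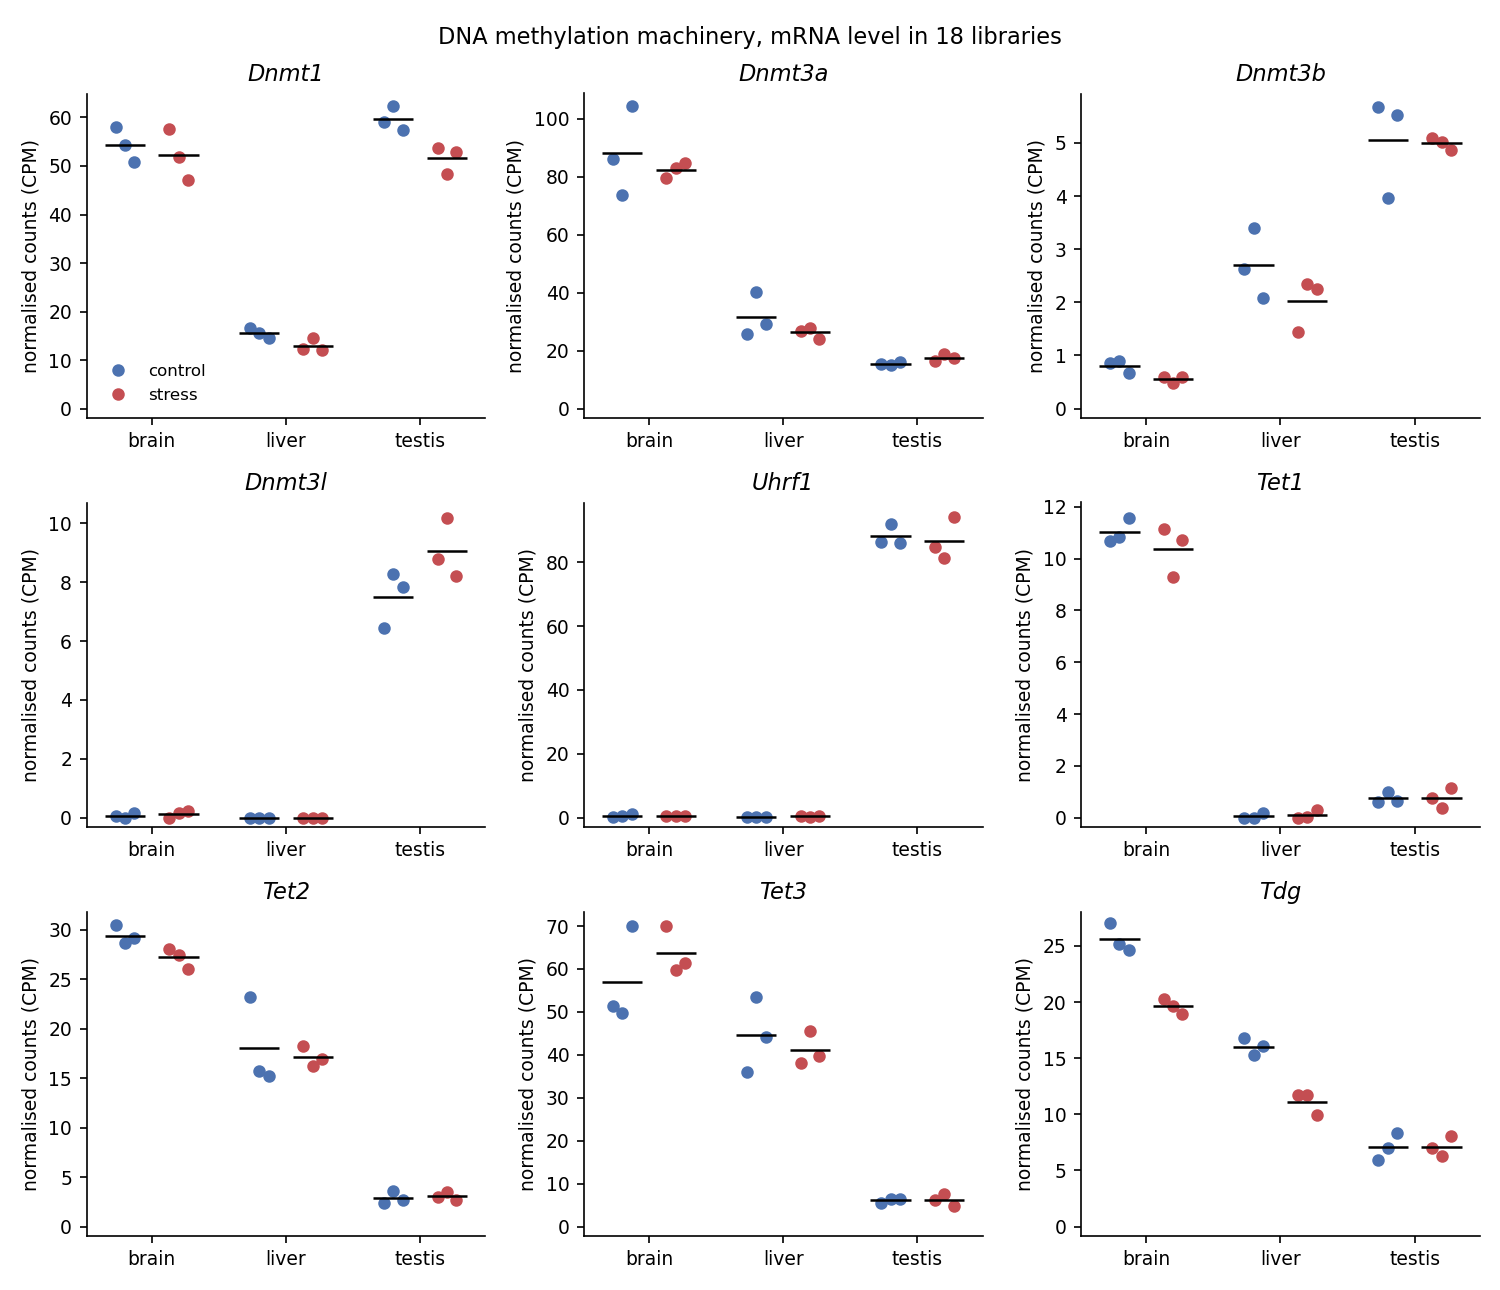
Level of each member in each library, in CPM with TMM factors (vertical axes, scaled per gene), by tissue, with control in blue and stress in red and horizontal bars at the group means. Uhrf1 and Dnmt3l lie near 0 outside testis, Tet1 lies near 0 outside brain, and the Tdg points of stress lie under those of control in brain and liver.

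The maintenance pair, Dnmt1 and Uhrf1, differed in where it was expressed. Dnmt1, in CPM with TMM scaling factors, was 58.0, 54.3 and 50.8 in the control brain libraries, 59.1, 62.4 and 57.5 in control testis and 16.6, 15.6 and 14.6 in control liver. Brain and testis overlapped, and liver lay below both. Uhrf1 in the same order was 0.224, 0.461 and 1.05 CPM in brain, 86.3, 92.1 and 86.0 CPM in testis and 0.223, 0.0892 and 0.178 CPM in liver. The control testis libraries held 2604 to 2943 Uhrf1 counts each, against 10 to 50 in control brain and 2 to 5 in control liver. With TMM factors, brain thus had Dnmt1 near the testis level with little Uhrf1. On the TPM scale mean Dnmt1 was 38.3 in control brain and 25.7 in control testis.

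The de novo group differed by member. Dnmt3a was highest in brain, at 86.2, 73.7 and 104 CPM in control libraries, then liver, at 25.8, 40.3 and 29.2 CPM, and then testis, at 15.5, 14.9 and 16.2 CPM, with no overlap between tissues on this scale. In CPM Dnmt3b was the reverse of it, highest in testis at 5.67, 3.95 and 5.53. It was 2.64, 3.39 and 2.09 CPM in liver and 0.852, 0.899 and 0.675 CPM in brain. By rank within control libraries Dnmt3b instead stood highest in liver, between the 44.4 and 47.7 percentile. It stood between the 38.4 and 43.3 percentile in testis and between the 27.2 and 29.2 percentile in brain. Dnmt3l, the germ cell cofactor, had 194, 251 and 268 counts in control testis and 285, 342 and 298 in stress testis, 0 to 10 counts in the brain libraries and 0 counts in all 6 liver libraries. Against a floor of 3 counts in each liver library, its mean level in testis was at least 56.2-fold higher in control and at least 66.6-fold higher in stress, an allowance for counting error only. Dnmt3c, a rodent copy of Dnmt3b active in fetal male germ cells, was counted in its own row, with 22 to 72 counts in testis and at most 8 in any other library, and reads that fit both copies could have been given to either.

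In CPM, the oxidases and Tdg had their highest control means in brain. Control brain libraries had 10.7, 10.8 and 11.6 CPM of Tet1, the oxidase with a CXXC domain known from embryonic stem cells, and 470 to 549 counts. Liver had 0, 0 and 4 Tet1 counts in control and 0, 1 and 6 in stress, and testis had 12 to 41. Tet2, which lacks that domain, was 30.5, 28.7 and 29.1 CPM in control brain, 23.2, 15.7 and 15.2 in liver and 2.42, 3.59 and 2.72 in testis. Tet3 was 51.3, 49.8 and 70.1 CPM in control brain, 36.0, 53.5 and 44.1 in liver and 5.60, 6.49 and 6.52 in testis, so brain and liver overlapped and testis lay below both. Tdg was 27.0, 25.2 and 24.6 CPM in control brain, 16.8, 15.3 and 16.0 in liver and 5.93, 6.95 and 8.30 in testis, with no overlap.

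These differences were tested with edgeR's quasi-likelihood test, with p adjusted by Benjamini-Hochberg over all genes tested and a threshold of 0.05. Between tissues most genes pass it, so a count of members says little by itself. Control groups without overlap, in either direction, were likewise found for 83.6% of genes tested for liver minus brain, 89.9% for testis minus brain and 89.7% for testis minus liver. Liver against brain in control libraries called 7 of 8 members tested (80.1% of all genes), testis against brain 8 of 9 (88.1%) and testis against liver 9 of 9 (88.5%). In the stress libraries the counts were the same, 7 of 8, 8 of 9 and 9 of 9, beside 81.9%, 85.3% and 87.8% of all genes. Dnmt3l, Uhrf1 and Tet1 did not pass the filter on low counts within liver, nor Dnmt3l within brain, and entered these comparisons through the other tissue, where they are higher, so their calls add no support to the counts. For testis minus brain in control libraries, members ran from a log2 fold change of 7.23 for Uhrf1 (SE 0.34, adjusted p = 5.7e-08) and 6.62 for Dnmt3l (SE 0.53, adjusted p = 2.4e-06) to -3.89 for Tet1 (SE 0.22, adjusted p = 2.2e-07), -3.33 for Tet2 (SE 0.16) and -3.20 for Tet3 (SE 0.16). Dnmt3b was higher in testis by 2.64 (SE 0.25), whereas Dnmt3a was lower by a log2 fold change of -2.50 (SE 0.13) and Tdg by one of -1.85 (SE 0.14). Dnmt1 at 0.14 (SE 0.08, adjusted p = 0.158) was the member not called.

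The 3 tissues use their RNA very unevenly, so part of each value depends on the scale. Without TMM factors, on library size alone, the median over all genes moved from -0.33 to -1.37 for liver minus brain in control libraries, from 0.20 to -0.10 for testis minus brain and from 0.93 to 1.67 for testis minus liver. Over all genes called for liver minus brain, the split moved from 6143 higher and 8147 lower to 3683 higher and 11387 lower, and for testis minus liver from 10844 higher and 6927 lower to 12483 higher and 5327 lower. On TMM factors, on library size and on log2(TPM + 1) alike, Uhrf1, Dnmt3l and Dnmt3b were called higher in testis than in brain and than in liver. Dnmt3b in testis minus liver, however, lay near the median over all genes in control libraries. It was 0.84 beside 0.93 with TMM factors, 1.59 beside 1.67 on library size and 1.13 beside 1.13 on log2(TPM + 1). In stress libraries it was 1.25 beside 0.93, 1.96 beside 1.64 and 1.19 beside 1.05 in the same order. Dnmt3a, Tdg, Tet1, Tet2 and Tet3 were called lower in testis than in brain on each of these scales, in control and in stress libraries. Likewise Dnmt1 was called lower in liver than in brain and testis, and Dnmt3a, Tet1, Tet2 and Tdg lower in liver than in brain. Calls of Uhrf1, Dnmt3l and Tet1 against liver, and of Dnmt3l against brain, came through the other tissue and add no support here either.

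Other directions turned with the scale. Dnmt1 in testis minus brain was 0.14 with TMM factors, -0.17 on library size and -0.55 on log2(TPM + 1) in control libraries, of which the last passed (adjusted p = 0.00036). With RLE factors it was 0.30 and passed in the opposite direction (adjusted p = 0.00953), so Dnmt1 was called in either direction depending on the scale. Dnmt3b in liver minus brain was 1.78 with TMM factors (adjusted p = 0.00095), 0.75 on library size (adjusted p = 0.0579) and -0.02 on log2(TPM + 1) (adjusted p = 0.86), so its order between liver and brain was not settled. Dnmt3a in testis minus liver was -1.09 (adjusted p = 0.00025), -0.34 (adjusted p = 0.097) and 0.04 (adjusted p = 0.77) in the same order, and Tdg was -1.24, -0.49 and -0.09. Tet3 was not called for liver minus brain in control libraries with TMM factors (-0.30, adjusted p = 0.172) and was called on library size (-1.34) and on log2(TPM + 1) (-1.93). The TPM of testis libraries also carry a single row, Gm23935, that took 2.73% to 16.7% of their total.

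**Figure D2:**
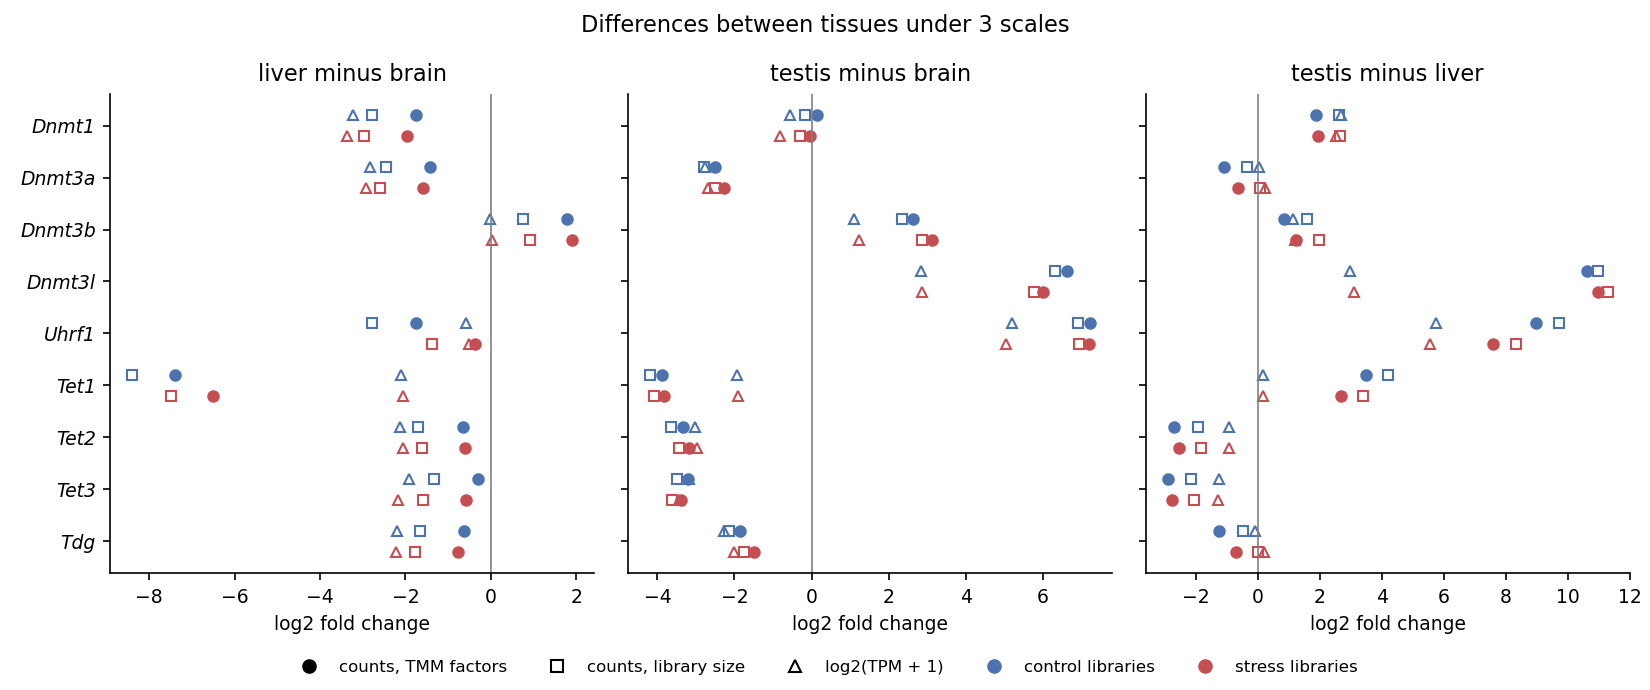
Log2 fold change of each member between pairs of tissues (horizontal axes) under TMM factors (filled circles), library size alone (squares) and log2(TPM + 1) (triangles), with control libraries in blue and stress libraries in red. The Dnmt1 symbols for testis minus brain and the Dnmt3b symbols for liver minus brain reach both sides of 0 or touch it, while Uhrf1 and Dnmt3l in testis stay far above it. Dnmt3l has no symbol for liver minus brain because it was not tested there.

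Low levels set the precision of Uhrf1 between liver and brain. Its log2 fold change was -1.76 in control libraries (SE 0.70, adjusted p = 0.0462) and -0.38 in stress libraries (SE 0.41, adjusted p = 0.410). Without control brain replicate 3, which held 50 of the 80 control brain counts, it was -1.02 (adjusted p = 0.175). The call was kept in 1 of the 6 fits that leave out a library, the one without control brain replicate 1, and lost in 9 of 14 alternatives in all, over which its adjusted p ran from 0.00534 to 0.175. With the animal as a block it was -1.57 (adjusted p = 0.106).

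Within a library the balance of oxidase to methyltransferase transcripts can be read without scaling between libraries. The summed TPM of Tet1, Tet2 and Tet3 over that of Dnmt1, Dnmt3a and Dnmt3b was 0.571, 0.606 and 0.678 in control brain, 1.18, 1.11 and 1.19 in control liver and 0.0676, 0.0864 and 0.0790 in control testis. The tissues did not overlap, and oxidase transcripts outweighed methyltransferase transcripts in liver alone among the 3 tissues. Under stress the ratios were 0.687, 0.647 and 0.686 in brain, 1.34, 1.26 and 1.37 in liver and 0.0850, 0.106 and 0.0748 in testis. Control and stress overlapped in brain and in testis. In brain the ratio was higher under stress for each of the 3 replicate numbers, a pairing that the labels do not give. Control and stress did not overlap in liver, where the mean was 1.16 ± 0.0434 in control and 1.32 ± 0.0595 in stress. As the members were chosen with results of these data known, no test of this ratio is given. With 3 libraries against 3, a two-sided exact permutation p cannot fall under 0.1, so the lack of overlap in liver is a description only.

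Dnmt1 made up 83.1% ± 2.16 of the summed methyltransferase TPM in control testis, 61.4% ± 4.97 in control brain and 50.7% ± 5.84 in control liver. Dnmt3a made up 37.5% ± 5.17 in brain, 38.6% ± 5.31 in liver and 8.20% ± 0.495 in testis, so its share in brain and liver differed by less than the spread. Tet3 was the largest oxidase share in all 3 tissues, at 54.3% ± 4.63 in brain, 65.1% ± 9.55 in liver and 58.7% ± 4.02 in testis. Tet1 made up 8.65% ± 0.587 of oxidase TPM in brain, 5.64% ± 0.947 in testis and 0.0754% ± 0.131 in liver.

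**Figure D3:**
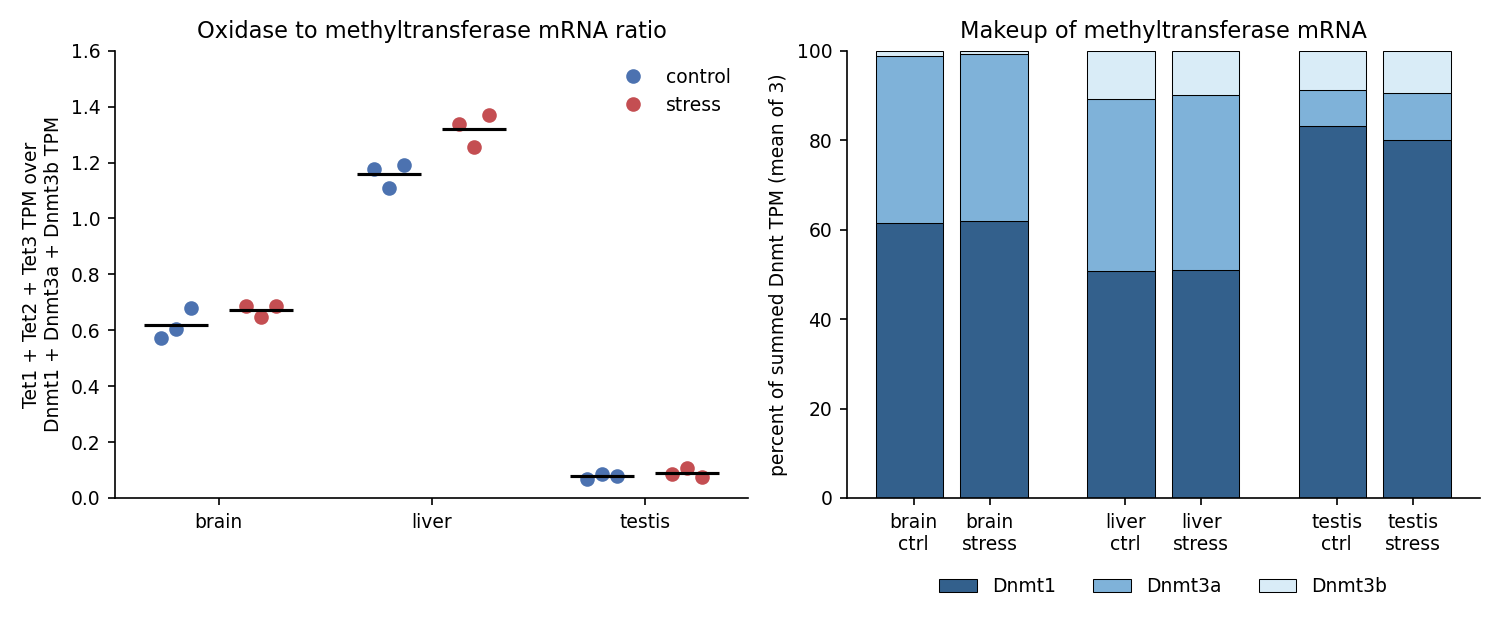
Left, summed TPM of Tet1, Tet2 and Tet3 over that of Dnmt1, Dnmt3a and Dnmt3b in each library (points, with bars at the means). Right, mean share of each methyltransferase in their summed TPM, in percent, for control (ctrl) and stress groups of 3 libraries. Liver lies above 1, brain between 0.571 and 0.687 and testis at 0.106 or below.

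The stress comparison asked whether restraint changed these transcripts. None of the members was called in any tissue. In liver 0 of 6 tested passed, beside 1.63% of all genes, in brain 0 of 8, beside 0.00566%, and in testis 0 of 9, beside 0.0201%. At an unadjusted p under 0.05 there was 1 member in each tissue: Tdg in liver (17.2% of all genes), Tdg in brain (7.54%) and Dnmt1 in testis (11.7%). DESeq2 and limma-voom called 0 members in all 3 tissues as well. The median log2 fold change of the members tested was -0.22 in liver, -0.06 in brain and 0.01 in testis, beside -0.01, 0.00 and 0.01 over all genes tested.

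Tdg had the lowest unadjusted p in liver and brain. In brain it was 27.0, 25.2 and 24.6 CPM in control and 20.3, 19.6 and 18.9 CPM in stress, and in liver 16.8, 15.3 and 16.0 CPM in control and 11.7, 11.8 and 9.95 CPM in stress. Every stress library lay below every control library in both tissues, which held for 215 of 13079 genes tested in both, or 1.64%. The log2 fold change was -0.36 in brain (SE 0.08, 95% interval -0.55 to -0.16, unadjusted p = 0.00306, adjusted p = 0.442 by edgeR) and -0.47 in liver (SE 0.15, interval -0.81 to -0.13, unadjusted p = 0.0117, adjusted p = 0.153). Neither passes. With the replicate number as a block the adjusted p in brain was 0.158, and over all alternatives in brain it ran from 0.0726 with DESeq2 to 0.974, none of them a call. In a single fit over all 18 libraries Tdg in liver was called lower, at -0.52 (adjusted p = 0.0498), while over the other alternatives in liver its adjusted p ran from 0.123 to 0.458. In testis Tdg was 5.93, 6.95 and 8.30 CPM in control and 6.99, 6.26 and 8.06 CPM in stress, with a log2 fold change of 0.01 (SE 0.17) and full overlap. The Tdg pseudogene Tdg-ps had at most 6 counts in any library.

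The other 5 members tested in liver were lower in stress by sign. The log2 fold changes were -0.21 for Dnmt1 (SE 0.15, adjusted p = 0.521), -0.22 for Dnmt3a (SE 0.18), -0.36 for Dnmt3b (SE 0.34), -0.01 for Tet2 (SE 0.18) and -0.06 for Tet3 (SE 0.17). With 1 library left out at a time, Dnmt3a ran from -0.37 to -0.02 and Dnmt3b from -0.50 to -0.16, and neither was called. Dnmt1 was the other member whose groups did not overlap, at 14.6 to 16.6 CPM in control against at most 14.5 CPM in stress. Groups that do not overlap, lower in stress, were found for 13.7% of all genes in liver, and higher in stress for 9.49%. The 95% interval for Dnmt1 in percent ran from -31.7% to 9.03% and for Tet3 from -25.9% to 23.8%. Changes within those intervals are not excluded. The macrophage markers given above were higher in the same stress liver libraries, 8 of 12 of them called, beside 1.63% of all genes. Lymphocyte markers summed to 19.7 to 23.1 CPM in stress liver against 12.9 to 15.9 CPM in control. The neural progenitor list, which holds Mki67 and Top2a, summed to 2.30 to 5.66 CPM in stress liver against 5.90, 8.83 and 20.8 CPM in control. In each of these groups 4 of its 8 genes had no counts. Of the S phase genes given below, which also include Mki67 and Top2a, none was called in liver. The part of these markers in the liver values was not tested.

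Uhrf1, Tet1 and Dnmt3l were too low in liver for the test. Uhrf1 had 5, 2 and 4 counts in control liver and 12, 6 and 10 in stress liver, which do not overlap. Among genes tested in liver, 9.49% were higher in stress without overlap, a share that leaves out Uhrf1. Counts this low limit what the order of the libraries can show. Without a filter on low counts the log2 fold change of Uhrf1 was 1.41 (SE 0.92, adjusted p = 0.587). Tet1 had 4 counts in control liver in all and 7 in stress liver. Hells, the chromatin remodeller that works with UHRF1 in maintenance, had 25, 38 and 25 counts in control liver and 62, 54 and 79 in stress liver. These do not overlap, beside the same 9.49% of genes tested, and Hells was not called by edgeR (1.23, SE 0.35, adjusted p = 0.114). DESeq2 called it higher (adjusted p = 0.0392), as did the fit over all 18 libraries (adjusted p = 0.0372).

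**Figure D4:**
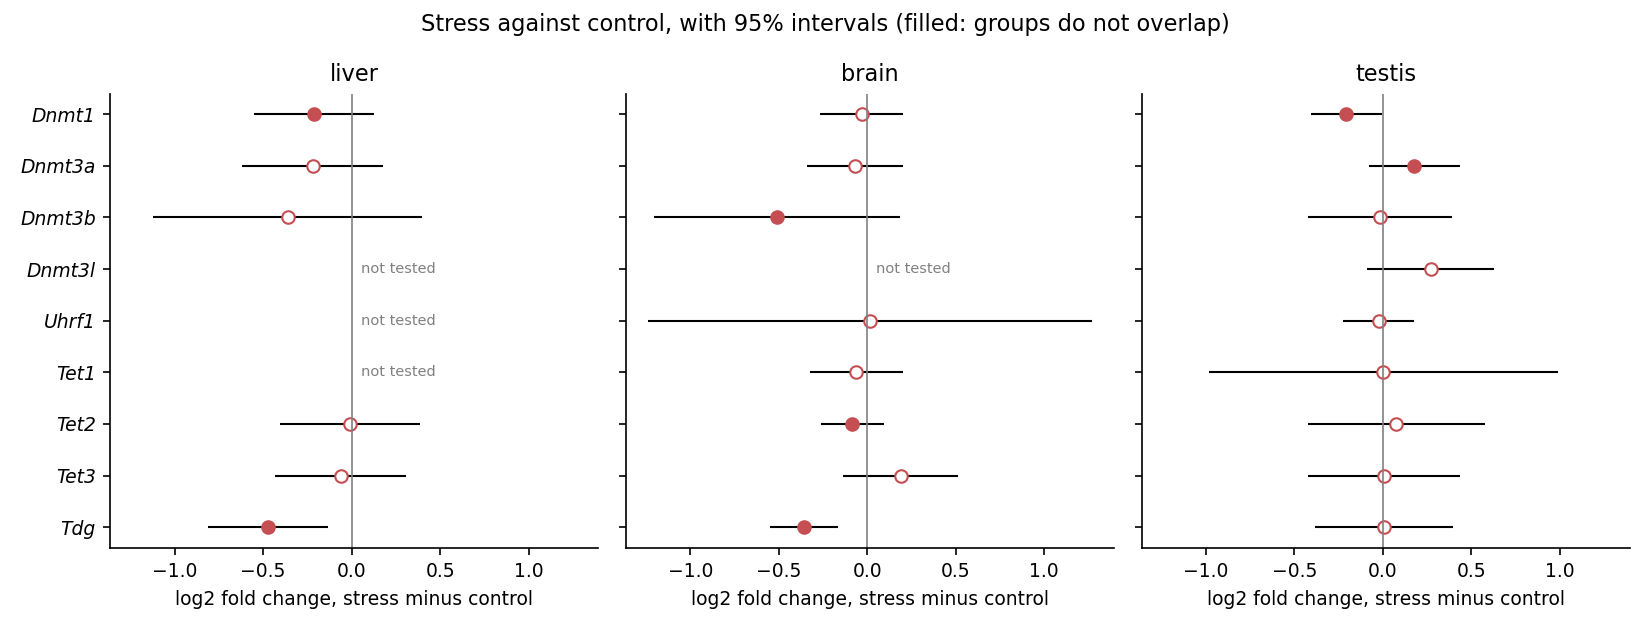
Log2 fold change of each member, stress minus control (horizontal axes), with 95% intervals from edgeR for liver, brain and testis, filled where control and stress libraries do not overlap. The Tdg intervals in liver (-0.81 to -0.13) and brain (-0.55 to -0.16) lie below 0, and those of Uhrf1 in brain and Tet1 in testis are the widest.

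In brain, Dnmt3a had 86.2, 73.7 and 104 CPM in control and 79.5, 83.1 and 84.6 CPM in stress, with a log2 fold change of -0.07 (SE 0.12) and overlap. Dnmt1 (-0.03, SE 0.10), Tet1 (-0.06, SE 0.11) and Uhrf1 (0.02, SE 0.54) also overlapped. Tet3 was 51.3, 49.8 and 70.1 CPM in control and 69.9, 59.7 and 61.4 CPM in stress, at 0.19 (SE 0.14, adjusted p = 0.791). Besides Tdg, the groups of Dnmt3b and Tet2 did not overlap, each lower in stress, beside 8.77% of all genes. Dnmt3b went from 32 to 39 counts in control to 22 to 26 in stress (-0.51, SE 0.30, adjusted p = 0.734), and Tet2 from 28.7 to 30.5 CPM in control to 26.1 to 28.1 CPM in stress (-0.08, SE 0.08).

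Stress brain replicates 2 and 3 carry the choroid plexus markers noted above. With those 2 libraries left out, the remaining stress library is assumed to vary like the controls. Tdg was then -0.28 (adjusted p = 0.895), Dnmt3b -0.40, Dnmt3a -0.09, Tet2 -0.01 and Tet3 0.35, while Dnmt1 turned to 0.14, Tet1 to 0.07 and Uhrf1 to -0.04, and 0 members were called. Tdg was 20.3 CPM in stress brain replicate 1, the library low in these markers, and 19.6 and 18.9 CPM in replicates 2 and 3. Control brain had 24.6 to 27.0 CPM. The part of the choroid plexus, oligodendrocyte and lymphocyte markers in the brain values was not tested.

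In testis, Dnmt1 was 59.1, 62.4 and 57.5 CPM in control and 53.8, 48.3 and 52.9 CPM in stress. The groups did not overlap, beside 10.2% of all genes lower without overlap, and the log2 fold change was -0.21 (SE 0.09, 95% interval -0.41 to -0.01, unadjusted p = 0.0430, adjusted p = 0.422). Dnmt3a did not overlap in the other direction, at 14.9 to 16.2 CPM in control and 16.3 to 18.9 CPM in stress (0.18, SE 0.11, adjusted p = 0.516), beside 10.8% of all genes. Uhrf1, the most abundant member there, was 86.3, 92.1 and 86.0 CPM in control and 84.9, 81.4 and 94.0 CPM in stress, at -0.02 (SE 0.09), with an interval in percent from -14.3% to 13.0%. Dnmt3l was 0.27 (SE 0.16, adjusted p = 0.491), and Dnmt3b, Tet1, Tet2 and Tet3 lay between -0.02 and 0.08. Without stress testis replicate 2, Dnmt1 was -0.17 (adjusted p = 0.523) and Dnmt3a 0.11 (adjusted p = 0.782). Spermatid markers summed to 15787 to 16212 CPM in stress testis against 14165 to 15519 CPM in control, and spermatogonium markers to 140 to 147 against 128 to 136 CPM. The neural progenitor list, which holds Mki67 and Top2a, summed to 171 to 221 against 246 to 251 CPM. Of the S phase genes given below, which also include Mki67 and Top2a, none was called in testis. Spermatocyte markers summed to 979 CPM in stress testis replicate 2 against 1271 to 1398 CPM in the other testis libraries. The part of these markers, and of the macrophage and Sertoli cell markers of replicate 2, in these values was not tested.

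Whether stress acted differently between tissues was tested directly as an interaction. Of the 6 members that passed the filter within liver, 0 passed for liver against brain, beside 0.195% of all genes, and 0 for liver against testis, beside 0.154%. For testis against brain 0 of the 8 members tested within both tissues passed, beside 0.0% of all genes. At an unadjusted p under 0.05 there were 0, 1 and 0 members, and 11.6%, 13.9% and 9.43% of all genes. The 1 was Tdg in liver against testis. It differed there by -0.52 (SE 0.24, unadjusted p = 0.0447, adjusted p = 0.350), while between liver and brain its stress effects differed by -0.11, with an interval from -0.46 to 0.23. DESeq2 and limma-voom called 0 members in these 3 comparisons too.

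Other genes of the pathway were followed as lists by role, chosen with earlier results of these data known. Among 11 readers of methylated CpG, all tested in every tissue, 0 were called in liver, brain or testis, with median log2 fold changes of 0.04, 0.05 and -0.10. Uhrf2, a relative of Uhrf1 that binds hydroxymethylcytosine, was 37.6 ± 1.59 CPM in control brain and 47.9 ± 1.45 CPM in stress brain (0.37, SE 0.07, unadjusted p = 0.000634, adjusted p = 0.386), and DESeq2 alone among the tools called it. Of 21 targeting and maintenance partners, 15, 16 and 19 were tested and edgeR called 0, with medians of 0.08, 0.01 and -0.03. Ctcfl, a germline relative of the insulator protein CTCF, had 53, 33 and 50 counts in control liver and 91, 97 and 116 in stress liver (1.24, SE 0.29, adjusted p = 0.0693). It was called higher by DESeq2 (adjusted p = 0.00697), without a filter (adjusted p = 0.0227) and in the fit over all 18 libraries (adjusted p = 0.0430).

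Among 22 partners of oxidation and excision repair, 20, 21 and 21 were tested and edgeR called 0, with medians of -0.05, -0.14 and 0.02. The stress-inducible Gadd45 genes, whose products have been linked to demethylation, had the smallest p in liver and brain. Gadd45a had 1228, 497 and 2228 counts in control liver and 195, 393 and 168 in stress liver. These do not overlap, beside 13.7% of all genes tested in liver that were lower without overlap. The log2 fold change of Gadd45a was -2.34 (SE 0.50, adjusted p = 0.0530 by edgeR). It was called by DESeq2 (adjusted p = 0.0140), without a filter (adjusted p = 5.9e-06) and in the fit over all 18 libraries (adjusted p = 0.00993), and not by limma-voom (adjusted p = 0.0987). Gadd45g in liver was -2.47 (SE 0.76, adjusted p = 0.140), with 7718, 4317 and 1829 counts in control and 249, 1899 and 266 in stress, which overlap. It was called lower with the replicate block (-2.84, adjusted p = 0.0401), without a filter (adjusted p = 0.000364) and in the fit over all 18 libraries (adjusted p = 0.0257). Without stress liver replicate 2 it was -4.03 (adjusted p = 0.00842). In brain Gadd45b was -0.44 (SE 0.12) and Gadd45g -0.46 (SE 0.14), with adjusted p of 0.532 and 0.583.

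Of 18 genes of the methyl donor cycle, 18, 16 and 18 were tested and edgeR called 0, with medians of -0.05, 0.01 and -0.02. Mtrr, which reactivates methionine synthase, was 8.84 ± 0.575 CPM in control liver and 12.3 ± 0.419 in stress liver (0.53, SE 0.16, adjusted p = 0.131), and 7.86 ± 1.22 CPM in control brain and 11.3 ± 0.936 in stress brain (0.55, SE 0.14, adjusted p = 0.481). Mat1a, the liver enzyme that makes the methyl donor S-adenosylmethionine, was 4164 ± 442 CPM in control liver and 2985 ± 309 in stress liver (-0.42, SE 0.13, adjusted p = 0.145), and DESeq2 called it lower.

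Imprinted genes, whose expression from 1 parental copy rests on DNA methylation, gave the single call. Of 25 genes, 19, 23 and 20 were tested, 1 was called higher in liver, beside 0.982% of all genes, and 0 in brain and testis, with medians of 0.09, 0.16 and -0.07. Meg3, a maternally expressed long non-coding RNA, had 432, 853 and 333 counts in control liver and 3255, 1254 and 1668 in stress liver, and rose by a log2 fold change of 2.03 (SE 0.41, adjusted p = 0.0476). Leaving out 1 library at a time, its adjusted p ran from 0.0241 to 0.128 and its log2 fold change from 1.52 to 2.52, and 4 of the 6 such fits no longer called it. On log2(TPM + 1) it was not called (adjusted p = 0.0841).

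Germline genes known to be silenced by methylation in somatic cells formed a list of 20, of which testis had 20 tested, brain 8 and liver 2. None was called under stress, with medians of -0.38 in liver, -0.05 in brain and -0.07 in testis. Ddx4, a germ cell helicase, had 0 to 2 counts in the liver libraries and 621 ± 29.3 CPM in control testis. For S phase genes, which mark replicating cells, 22, 25 and 25 of 25 were tested and 0 called, with medians of 0.02, -0.05 and -0.08. Between tissues, in control libraries, 22 of the 25 were called higher in testis than in brain and 22 higher in testis than in liver, the direction of Uhrf1, beside 47.0% and 54.0% of all genes.

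Genes with the profile most like that of a member were taken from 16982 protein-coding genes by Pearson's r of log2(TPM + 1) over the 18 libraries, as a description in which the 3 tissues set most of the value. Uhrf1 was most like Ttc21a (r = 0.9992), Btbd16 and Cfap161, and Dnmt3l most like Smpx (r = 0.9979), 1700021F07Rik and Spaca9. Tet1 was most like Ina (r = 0.9990), Grm3 and Npy, and Tet2 most like Tbkbp1 (r = 0.9974), Sh3glb2 and Tbc1d24. Dnmt1 was most like Apba1 (r = 0.9983), with Txndc16 also named, and Dnmt3a most like Ank3 (r = 0.9973), Ptgfrn and Tomm20. Tet3 was most like C330007P06Rik (r = 0.9934), Mlf2 and Cadm4, and Tdg most like Tsn (r = 0.9923), D130043K22Rik and Nr4a2. Dnmt3b had the lowest best match, Defb14 (r = 0.9849), followed by Gm3127 and Akr1b7.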

How the data were processed

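Total RNA was extracted with RNeasy kits and made into libraries with a stranded total RNA kit, per the labels' protocols, and reads were placed on mouse build mm39, per the submitters' processing notes. Not given in the sources used here are the aligner, counting program, strand setting and gene annotation. The raw counts per gene were deposited by the authors as whole numbers. Of counts from 1 to 10, 64.17% of 104691 were even. The deposited TPM and the deposited FPKM follow from the counts and 1 fixed gene length, so the authors made both from them (25290 genes compared within 0.1 percent). FPKM gave the lengths and no result. Symbols came from GENCODE M21, which named 34362 genes and left 570 without one. The antisense genes Dnmt3aos and Dnmt3bos and the copies Dnmt3c, Tdg-ps, Dnmt3l-ps1 and Dnmt3a-ps1 have rows of their own, and reads shared with them cannot be placed.

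Tests were the quasi-likelihood tests of edgeR 4.0.16 (R 4.3.3), with its default filter and TMM factors, Benjamini-Hochberg adjustment across all tested genes and a threshold of 0.05, within each pair of groups, and an interaction term over 12 libraries between tissues. The test was tested on simulated data. Printed CPM carry TMM factors over all 18 libraries. Alternatives were RLE factors, DESeq2 1.42.0, limma-voom and log2(TPM + 1) with limma 3.58.1, no filter, the replicate number as a block, all libraries in 1 fit and each library left out. Library size alone and brain without 2 libraries were added after the data were seen. The members, lists and tests were chosen with earlier results of these data known. Named were the members, list genes that passed, otherwise up to 3 with the smallest p per tissue, and up to 3 of the most similar genes per member. Some genes that the rule takes are not reported here. Ddx4 was named beyond that rule, after its values were seen.

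Between replicates of 1 group the chi-square per degree of freedom was 4.43 to 103.92, above counting error. Sample codes are shared between tissues, and libraries of different tissues can therefore come from 1 animal. Across genes, the deviations of same-numbered control and stress libraries correlated at 0.305, 0.167 and 0.439 in brain. They correlated at 0.187, 0.053 and -0.001 in liver and at 0.077, 0.068 and -0.088 in testis. A pairing by number rests on the libraries themselves and not on the labels. The main tests of stress did not use it in any tissue, and only the fits with the replicate block did. Stress brain replicate 3 has a description code with the prefix of the controls, and its title and treatment, which say stress, were followed.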

Additional observations from a re-analysis of the deposited data

How the results depend on the processing

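No member was called for stress under the alternatives run, with 1 exception: the fit over all 18 libraries called 1 member lower in liver, Tdg. Over all genes the count of stress calls in liver was 232 in the main test, 856 with DESeq2, 858 without a filter, 892 in the fit over all 18 libraries, 475 with the replicate block and 143 on log2(TPM + 1). In brain it was 1, and 137 with DESeq2, 22 with the block, 2 without a filter, 3 in the fit over all libraries and 0 with limma-voom or without the 2 libraries high in choroid plexus genes. In testis it was 4, and 61 with DESeq2, 25 without a filter, 6 with the block or in the fit over all libraries and 2 on log2(TPM + 1). For the stress effect in liver minus brain it was 37, and 568 with DESeq2, 123 without a filter, 101 in the fit over all libraries, 17 with limma-voom and 2 with the block. For liver minus testis it was 33, and 717, 134, 164, 67 and 16 in the same order, with 72 on log2(TPM + 1). For testis minus brain it was 0, and 95 with DESeq2, 8 without a filter and 4 on log2(TPM + 1). With 1 library left out, the count in liver was 291 and 212 without control replicate 1 and stress replicate 2, 106 and 81 without control replicates 3 and 2, 61 without stress replicate 1 and 31 without stress replicate 3. It ran from 0 to 1 in brain and from 0 to 21 in testis, the highest without stress testis replicate 2. For liver minus brain it ran from 5 (without control brain replicate 1) to 112 (without stress liver replicate 2), for liver minus testis from 0 (without control testis replicate 3) to 129 (without control liver replicate 1) and for testis minus brain from 0 to 3. Each percentage of all genes printed beside the members for stress moves with these counts. The replicate block ended the call of Uhrf1 for liver minus brain in control libraries (-1.57) and changed no other call of a member.

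On log2(TPM + 1), 0 members were called higher for liver minus brain in control and in stress libraries (1 in the main test), and 2 were called lower for testis minus liver in control and in stress (4 in the main test). On library size alone the first was 0 in control and the second 2 in stress. Small stress values changed sign, none of them called. In liver Tet2 was 0.0082 with limma-voom, 0.011 on log2(TPM + 1), 0.010 with the block and 0.017 on library size. In brain Uhrf1 was -0.017 in the fit over all libraries and -0.044 without the 2 choroid-high libraries, where Dnmt1 was 0.14 and Tet1 0.065. In testis Tet1 was -0.0077 with RLE factors, -0.011 with DESeq2, -0.0087 on log2(TPM + 1), -0.089 with limma-voom, -0.0033 without a filter and -0.058 with the block. Tet3 there was -0.0068 with RLE factors, -0.0071 with DESeq2, -0.013 with the block, -0.023 with limma-voom, -0.0031 without a filter and -0.058 on log2(TPM + 1), and Tet2 was -0.0057 on that scale. Tdg in testis was -0.0046 with RLE factors, -0.0048 with DESeq2, -0.00062 without a filter and -0.059 on log2(TPM + 1). On library size Dnmt3b in testis was 0.037, Uhrf1 in testis 0.028 and the stress effect of Uhrf1 in testis minus brain 0.014. Between tissues, Dnmt3b in liver minus brain was -0.021 on log2(TPM + 1) in control, Dnmt1 in testis minus brain was -0.55 on that scale and -0.17 on library size in control, and 0.12 with RLE factors and DESeq2 in stress. In testis minus liver, Dnmt3a was 0.044 on log2(TPM + 1) in control and 0.24 there and 0.087 on library size in stress, and Tdg in stress was 0.21 and 0.013. The cause was not tested.

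With each library left out in turn, 0 members were called for stress. The values that changed sign ran from -0.10 to 0.19 for Tet2 and from -0.21 to 0.082 for Tet3 in liver. In brain they ran from -0.12 to 0.042 for Dnmt1, -0.18 to 0.064 for Dnmt3a, -0.13 to 0.019 for Tet1 and -0.37 to 0.77 for Uhrf1. In testis they ran from -0.16 to 0.068 for Dnmt3b, -0.43 to 0.32 for Tet1, -0.042 to 0.26 for Tet2, -0.18 to 0.16 for Tet3, -0.079 to 0.011 for Uhrf1 and -0.11 to 0.14 for Tdg. Dnmt1 in testis minus brain in stress ran from -0.13 to 0.056 and the stress effect of Uhrf1 in testis minus brain from -0.79 to 0.36. Counts of 0 to 12 per library for Uhrf1, Tet1 and Dnmt3l in liver limit what can be said of them there.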
